A study of Mus musculus with 48 samples.

Results

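The voltage-gated and potassium channel genes described here are the gene symbols of the count table that begin with Kcn, that name a voltage-gated sodium channel subunit (Scn, a number, and a or b), or that begin with Cacna, Cacnb or Cacng, with a mean of at least 1 CPM (counts scaled to equal library totals) over the 24 arcuate libraries. Of 25229 symbols, 138 matched the name pattern and 113 passed the limit. RNA was sequenced from micropunches of the arcuate nucleus, a hypothalamic region that controls feeding, and from the left nodose ganglion, where the vagus nerve keeps its sensory cell bodies. All mice were chow-fed males with floxed alleles of both Rev-erb genes (Nr1d1 and Nr1d2, labelled Reverb a/b fl/fl) on C57Bl/6J, aged 10 to 12 weeks per the labels. They were kept on a 12:12 light cycle at 27 °C with free access to food. Control mice received AAV8-TBG-EGFP and HepDKO mice AAV8-TBG-Cre through the tail vein at 6 to 10 weeks of age, and were sampled 2 to 4 weeks later. TBG is a promoter active in hepatocytes, so the deletion was directed at the liver and not at the tissues sequenced. Samples were collected at ZT4, ZT10, ZT16 and ZT22 (zeitgeber time, in hours from the start of light). Libraries were pools, of arcuate punches from 3 mice (3 to 4 in the series' design text) or of ganglia from 4 mice, with 3 libraries in each of 16 groups. The p-values here measure the spread between these pools. Arcuate libraries were prepared by a commercial provider and nodose libraries with a ribosomal RNA depletion kit, and the effects of tissue and of preparation cannot be told apart.

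Voltage-gated sodium channels start the action potential, potassium channels end it and set how often the next one follows, and calcium channels couple firing to transmitter release and transcription. Pore subunits form the channel and accessory subunits set its surface number, gating and kinetics. In clock neurons of the brain, daily changes in potassium and sodium conductances are known to set the daily rhythm of firing rate, and in arcuate neurons ATP-sensitive and G protein-gated potassium channels link glucose and neuropeptide signals to excitability.

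Arcuate libraries held 15483922 to 20399718 counts (median 17324244) and nodose libraries 1813994 to 10422914 (median 6641665). The arcuate HepDKO ZT4 replicate 3 stood apart: 48 of the 113 channel genes (42.5%) had their lowest of the 24 arcuate values there, against 24.0% of the 16102 genes tested in the arcuate, and 10 members and 21.6% of genes had their highest. The ribosomal transcript Rn45s made up 2.08% of its counts, against 4.10 to 8.13% elsewhere, and its astrocyte marker score (mean log2(CPM + 1)) was 7.12, against 7.48 to 7.80. Control ZT22 replicate 1 came next, with 10.8% of genes lowest and 11.4% highest there, and 18 members highest. Xist, a transcript of female cells, had 1914 counts in arcuate HepDKO ZT10 replicate 3 and 1694 in nodose HepDKO ZT10 replicate 2, in a series labelled male. Pan-neuronal markers were even across the arcuate groups: 10 genes summed to 3910 to 4647 CPM in Control and 3918 to 4443 CPM in HepDKO. In nodose libraries these same genes summed to only 40.3 to 125 CPM. Markers of neurons in neighbouring hypothalamic regions (10 genes) were less even, at 413 to 1311 CPM over the arcuate libraries. A list of 10 arcuate neuron markers summed to 306 to 449 CPM there. The punches thus held transcripts of neighbouring regions, and their part in the results was not tested. Skeletal muscle markers summed to 3295 to 62422 CPM in nodose and to 4.38 to 31.3 CPM in the arcuate. In the arcuate the 5 Schwann and satellite cell markers, genes of peripheral glia, summed to 87.2 to 103 CPM at ZT4 and 59.8 to 81.0 at ZT16, without overlap, and 5 oligodendrocyte markers to 3851 to 4975 and 2650 to 4390 CPM, with overlap. Their part in the ZT4 to ZT16 results was not tested. The Schwann and satellite cell markers summed to 10546 to 29059 CPM in nodose and to 59.8 to 103 CPM in the arcuate. The nodose libraries thus held glial and muscle transcripts at high levels and neuronal ones at low levels, for tissue labelled as a sensory ganglion.

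The 113 genes comprised 36 voltage-gated potassium (Kv) pore subunits, 9 Kv accessory subunits, 9 calcium- or sodium-activated potassium channel genes, 13 inward rectifiers, 9 2-pore potassium channels, 8 sodium channel pores, 4 sodium channel β subunits, 9 calcium channel α1 pores, 4 α2δ, 4 β and 6 Cacng genes. The other 2 were the antisense or noncoding symbols Kcnq1ot1 and Kcnmb4os2, for which reads of the overlapping gene cannot be told apart because strand use in counting is not given in the sources used here. Just inside the limit lay Kcnmb4os2 at 1.52 CPM and Kcne4 at 1.39 CPM, and just outside it Kcnq1 and Kcnmb4, both at 0.98 CPM. The median level was 44.7 CPM in the arcuate and 2.92 CPM in nodose.

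By CPM, the abundant arcuate members included the glial inward rectifier Kcnj10 (440), the sodium channel pore Scn2a (354), the α2δ subunit Cacna2d1 (317), the sodium channel β subunit Scn2b (307), the fast delayed rectifier Kcnc1 (215), the N-type calcium pore Cacna1b (205), the Kv pore Kcna2 (191), the R-type calcium pore Cacna1e (190) and the Kv β subunit Kcnab2 (169). Per kilobase of exon, which is the scale for comparing genes, Kcnj10 stayed first at 81.3 CPM per kb. Next was the β subunit Scn2b at 66.0 CPM per kb, and Cacng7, a regulatory subunit of AMPA receptors, was at 41.6. Kcnab2 (30.2), Scn2a (27.8), Scn3b (26.6), Cacna2d1 (25.5), Cacng4 (25.3) and Cacnb3 (24.3) were also among the 10 highest per kb. As groups, sodium channel β subunits had a median of 44.4 CPM per kb and calcium channel β subunits 17.4, while Kv pores had 4.66 and calcium- or sodium-activated potassium channels 2.43.

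Channels known in arcuate or clock neurons differed in level and in their spread over the 24 libraries. On the TMM-scaled CPM scale (library sizes scaled by the trimmed mean of M values), which is used for spreads and for values by library, time and genotype, Kcnj11, the pore of ATP-sensitive channels, was at 22.6 ± 1.62 (SD, n = 24), and Kcnj8, its vascular relative, at 2.83 ± 0.631. The G protein-gated inward rectifiers were at 61.5 ± 5.07 for Kcnj3, 18.8 ± 3.42 for Kcnj6 and 87.2 ± 8.58 for Kcnj9 (SD, n = 24). The BK pore Kcnma1 was at 60.4 ± 9.64, the L-type calcium pores Cacna1c and Cacna1d at 91.9 ± 7.06 and 56.0 ± 6.15, and the T-type pores Cacna1g, Cacna1h and Cacna1i at 136 ± 15.6, 82.4 ± 8.48 and 90.5 ± 8.65 (SD, n = 24). Scn1a, Scn3a and Scn8a lay at 150 ± 23.6, 138 ± 10.5 and 153 ± 11.8, whereas the nociceptor pore Scn11a was at 1.85 ± 0.58 (SD, n = 24). Kcnc1 had one of the smallest spreads, from 194 to 240 CPM, while Kcnma1 ran from 29.0 to 78.3 CPM and Kcnj6 from 11.5 to 26.8.

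The library that stood apart, arcuate HepDKO ZT4 replicate 3, set many of the extremes. There Scn2a was at 186 CPM, against a lowest value of 317 and a median of 360 in the other 23 libraries. Kcnj10 was at 251 CPM against a lowest of 403, and Kcnma1 at 29.0 against 42.1. Kcnh5, an ether-à-go-go Kv pore, was at 2.98 CPM against 9.44, and the lymphocyte and neuronal Kv pore Kcna3 at 5.90 against 12.6. The sodium-activated channel Kcnt1 went the other way, at 238 CPM against a highest of 153 elsewhere. The main arcuate counts are therefore also given without it.

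**Figure D1:**
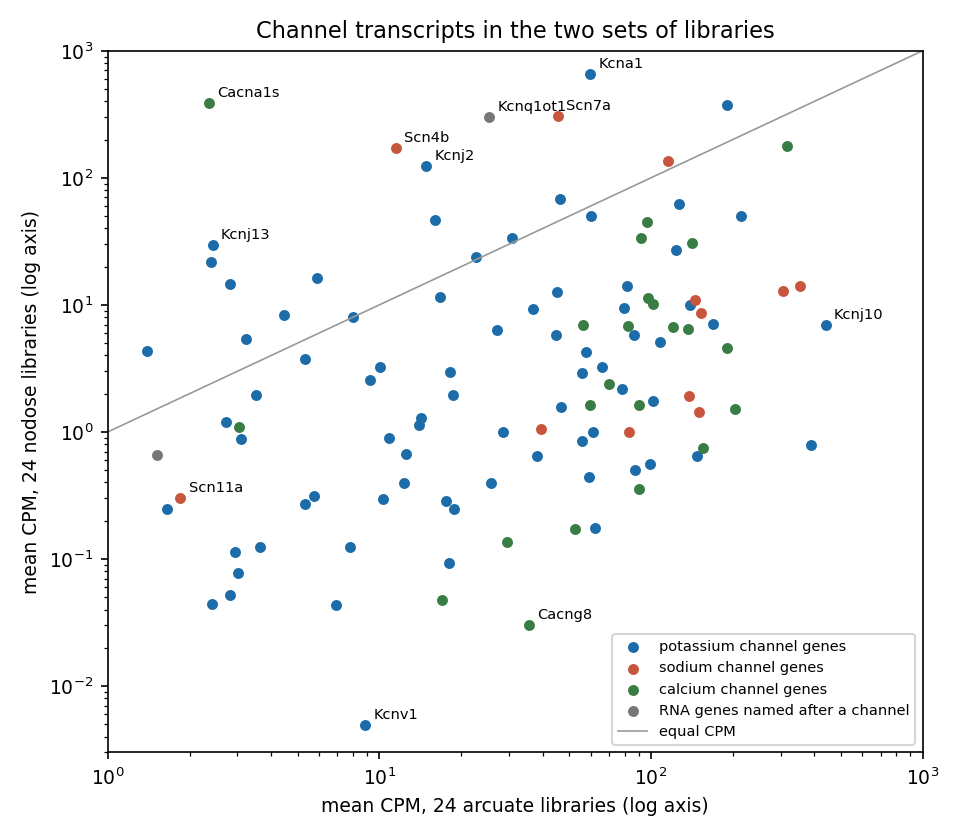
Mean CPM of the 113 channel genes over 24 nodose libraries against the mean over 24 arcuate libraries, on log axes, with the line of equal CPM. The genes were chosen for an arcuate mean of at least 1 CPM, which favours points below the line, and the 10 pattern symbols under that limit with at least 1 CPM in nodose are not drawn; Cacna1s, Kcna1, Scn4b and Scn7a lie above the line.

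The first comparison asked whether channel transcripts in the arcuate vary with time of day. With both genotypes averaged, 4 of 113 members passed the 24-h rhythm test (edgeR's quasi-likelihood test of the ZT4 to ZT16 and ZT10 to ZT22 differences together, Benjamini-Hochberg adjusted p under 0.05), which is 3.54%, against 3.86% of all genes tested. These were Kcnip3, Kcnc2, Kcnj5 and Kcnmb1, which were also among 10 members called by DESeq2 (6.68% of all genes). With edgeR there were 34 members at unadjusted p under 0.05 (30.1%), against 21.6% of all genes, and 21 of these 34 were lower at ZT4 than at ZT16. Amplitudes, from mean to peak on the log2 scale, ran from 0.00862 to 0.426, and 102 of 113 were under 0.2. The median amplitude was 0.0859 for members and 0.0745 for all genes tested. Fitted peaks fell between ZT13 and ZT19 for 40 members, between ZT19 and ZT1 for 37, between ZT1 and ZT7 for 25 and between ZT7 and ZT13 for 11. Most of these peaks belong to genes that did not pass, and they are not set against those of all genes here. The lean of the 34 members to lower values at ZT4 was lost without HepDKO ZT4 replicate 3, as given below.

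Kcnip3, a calcium-binding protein that associates with A-type Kv channels and also acts as a transcriptional repressor, peaked in the light phase. It lies on chr2:127456498-127522094 (mm10, minus strand). In Control it was at 59.6, 60.7 and 66.8 CPM at ZT4, 56.4, 56.6 and 60.3 at ZT10, 52.3, 50.1 and 51.6 at ZT16, and 60.8, 52.8 and 53.8 at ZT22. In HepDKO it was at 70.6, 67.6 and 62.4 at ZT4, 58.0, 52.0 and 57.9 at ZT10, 55.1, 50.7 and 47.5 at ZT16, and 57.0, 63.8 and 54.4 at ZT22. All 6 ZT4 libraries were above all 6 ZT16 libraries. The ZT4 mean was 64.6 ± 4.38 (SD, n = 6) and the ZT16 mean 51.2 ± 2.52 (SD, n = 6), a ratio of 1.26. The amplitude was 0.17 (SE 0.0267) with a fitted peak at ZT3.94 and an adjusted p of 0.00161. Kcnip3 passed in all 29 alternatives run, including each of the 24 fits that left out 1 library, where the adjusted p ranged from 0.00015 to 0.00816. Across the 24 arcuate libraries Kcnip3 had a Pearson r of 0.50 with the neuron marker score and a Spearman rho of 0.546, with an adjusted permutation p of 0.0964 for r (8 relations tested). Leaving out the 2 most distant scores gave an r of 0.501, Control alone 0.474 and HepDKO alone 0.563.

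Kcnc2, a fast delayed rectifier of rapidly firing interneurons, peaked in the dark phase. In Control it was at 81.0, 80.6 and 79.5 CPM at ZT4, 80.3, 83.1 and 83.3 at ZT10, 87.5, 98.4 and 97.1 at ZT16, and 96.2, 86.6 and 106 at ZT22. In HepDKO it was at 72.2, 87.0 and 57.4 at ZT4, 76.1, 72.6 and 91.4 at ZT10, 98.3, 88.0 and 97.2 at ZT16, and 95.4, 108 and 80.6 at ZT22. The highest ZT4 library was just below the lowest ZT16 library, and the lowest value of all was that of the HepDKO ZT4 library that stood apart. The means were 76.3 ± 10.4 at ZT4 and 94.4 ± 5.2 at ZT16 (SD, n = 6 each), a ratio of 1.24. The amplitude was 0.19 (SE 0.0410), with a peak at ZT18.5 and an adjusted p of 0.0229. It passed in 27 of 29 alternatives, and the adjusted p rose to 0.0565 without Control ZT16 replicate 2 and 0.0502 without Control ZT16 replicate 3.

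The windows of 250 bases before the RefSeq transcript starts (GRCm38.p6) of these 2 genes, which peaked in the light and in the dark phase, are printed with a member that stood out in nodose. Each is read 5′ to 3′ on the gene's strand, with the hexamer CAGCTG, and CATTCC or its reverse complement, in capitals. Kcnip3 is the window chr2:127522095-127522344 (minus strand, 1 of 3 annotated), Kcnc2 is chr10:112270871-112271120 (plus strand, 1 of 4), and Cacna1s is chr1:136052561-136052810 (plus strand).
Kcnip3: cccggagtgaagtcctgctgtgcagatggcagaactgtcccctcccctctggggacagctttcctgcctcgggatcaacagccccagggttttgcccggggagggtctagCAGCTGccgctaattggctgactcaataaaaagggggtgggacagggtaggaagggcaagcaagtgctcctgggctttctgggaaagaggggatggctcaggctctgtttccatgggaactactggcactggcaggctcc
Kcnc2: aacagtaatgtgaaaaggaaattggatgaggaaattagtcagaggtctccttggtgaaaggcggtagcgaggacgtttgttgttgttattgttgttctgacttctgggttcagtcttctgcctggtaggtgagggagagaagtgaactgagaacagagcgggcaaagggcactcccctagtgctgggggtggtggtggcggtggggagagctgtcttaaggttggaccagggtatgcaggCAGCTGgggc
Cacna1s: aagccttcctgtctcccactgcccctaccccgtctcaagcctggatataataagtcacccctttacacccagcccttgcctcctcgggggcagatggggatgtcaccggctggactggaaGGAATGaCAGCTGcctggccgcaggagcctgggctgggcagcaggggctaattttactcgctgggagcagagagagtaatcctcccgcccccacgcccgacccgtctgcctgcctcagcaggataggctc
Searched on both strands, the E-box CACGTG, its variant CACGTT, the nuclear receptor motif AGGTCA and the D-box forms TTATGTAA and TTACGTAA were not found in the windows of Kcnip3, Kcnc2, Kcnj5 or Kcnmb1. Over the 82 members with a window (116 windows), CACGTG was in those of Kcnab1, Kcne4, Kcnh4 and Kcnj2, which is 4.31% of member windows, against 6.02% of all 32851 windows. AGGTCA was in 6.03% of member windows and 14.0% of all windows, CACGTT in 0.862% and 3.85%, TTATGTAA in 0% and 0.819%, and TTACGTAA in 0% and 0.113%. CAGCTG, which is none of these clock-related motifs, was in 27.6% of member windows and 13% of all windows, and CATTCC in 17.2% and 12.6%. These motifs were chosen with the expression values known, and a match describes letters only.

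Kcnj5, a pore subunit of G protein-gated inward rectifiers, was also lowest at ZT4 and highest at ZT16. In Control it was at 16.1, 16.6 and 15.2 CPM at ZT4, 17.3, 18.1 and 18.6 at ZT10, 19.5, 20.2 and 20.2 at ZT16, and 17.7, 17.3 and 17.2 at ZT22. In HepDKO it was at 17.2, 16.5 and 13.5 at ZT4, 15.4, 18.2 and 18.4 at ZT10, 18.6, 20.3 and 18.6 at ZT16, and 20.2, 18 and 15.3 at ZT22. The ZT4 and ZT16 libraries did not overlap in either genotype. The means were 15.8 ± 1.34 at ZT4 and 19.6 ± 0.792 at ZT16 (SD, n = 6 each). The amplitude was 0.15 (SE 0.0361), with a peak at ZT15.95 and an adjusted p of 0.0399. This call was lost in 13 of the 29 alternatives, among them leaving out the HepDKO ZT4 library that stood apart, and the adjusted p rose to 0.107 without HepDKO ZT16 replicate 2. The other G protein-gated subunits Kcnj3, Kcnj6 and Kcnj9 did not pass, with adjusted p of 0.81, 0.616 and 0.278.

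Kcnmb1, the β1 subunit of BK channels and best known from smooth muscle, had the largest amplitude of the 4. In Control it was at 5.2, 4.89 and 3.55 CPM at ZT4, 3.07, 4.13 and 2.98 at ZT10, 2.53, 2.23 and 2.72 at ZT16, and 2.49, 3.43 and 2.61 at ZT22. In HepDKO it was at 3.08, 2.82 and 3.03 at ZT4, 2.91, 3.54 and 3.16 at ZT10, 2.15, 3.16 and 2.17 at ZT16, and 2.79, 3.16 and 2.54 at ZT22. The 3 Control ZT4 libraries were above the Control ZT16 libraries, while in HepDKO the times overlapped. The means over both genotypes were 3.76 ± 1.03 at ZT4 and 2.49 ± 0.397 at ZT16 (SD, n = 6 each), a ratio of 1.51. The amplitude was 0.30 (SE 0.0731), with a peak at ZT5.40 and an adjusted p of 0.0433, and the call held in 11 of 29 alternatives. The difference in its rhythm between genotypes had an amplitude of 0.31 (SE 0.146) and an unadjusted p of 0.126. The 5 smooth muscle markers summed to 28.1 to 39.2 CPM in Control ZT22 and to 16.8 to 26.2 CPM in the other arcuate groups. Across libraries Kcnmb1 had a Pearson r of −0.167 and a Spearman rho of −0.184 with that marker score (adjusted permutation p of 0.804 and 0.812). Leaving out the 2 most distant scores gave an r of −0.177.

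**Figure D2:**
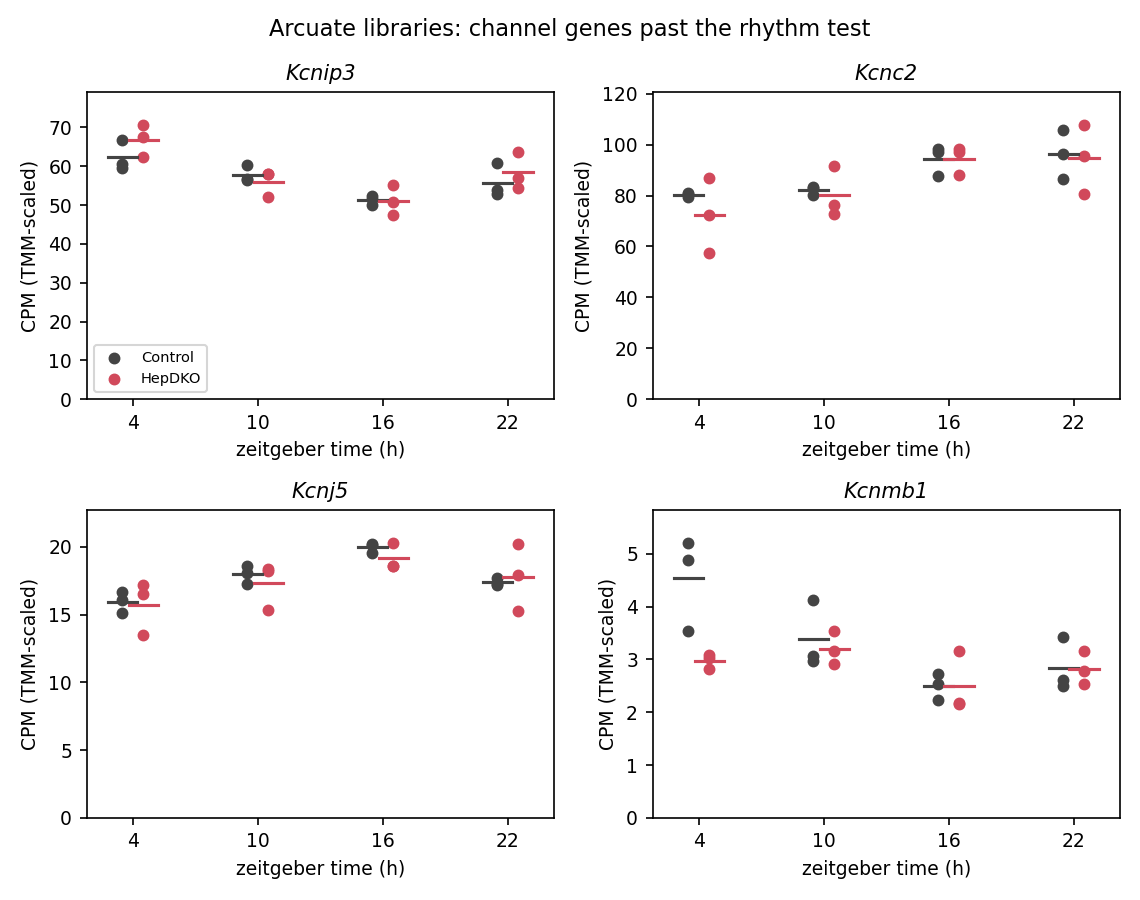
TMM-scaled CPM of Kcnip3, Kcnc2, Kcnj5 and Kcnmb1 in each arcuate library by zeitgeber time, with Control and HepDKO as separate points and group means as short lines. Kcnip3 is highest at ZT4, Kcnj5 at ZT16, and Kcnc2 at ZT16 and ZT22; the Kcnmb1 mean is highest at ZT4 in Control (4.54 CPM) and at ZT10 in HepDKO (3.20 CPM, against 2.98 at ZT4).

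The direct comparison of ZT4 with ZT16 called 6 members, against 4.98% of all genes tested. Of these 3 were higher at ZT4 (2.21% of all genes) and 3 lower (2.77%). To the 4 genes above it added Cacna2d2 and Kcnh1. Cacna2d2, an α2δ subunit of calcium channels, was at 155, 171 and 161 CPM in Control, with HepDKO at 162, 165 and 164 at ZT4, and at 147, 146 and 151 in Control, with HepDKO at 148, 150 and 146 at ZT16. The 2 times did not overlap, and the log2 difference was small at 0.14 (SE 0.0369, adjusted p 0.0309). The Cacna2d2 call held in 22 of 29 alternatives, with an adjusted p of 0.0924 without Control ZT4 replicate 2, and in this comparison the Kcnc2 call held in 20 and that of Kcnmb1 in 24. Kcnh1, an ether-à-go-go Kv pore, was at 52.4, 48 and 41.3 CPM in Control, with HepDKO at 44.1, 43.8 and 27.7 at ZT4, and at 58.6, 49.7 and 56.1 in Control, with HepDKO at 46.1, 59.4 and 49.9 at ZT16. Its ranges overlapped, and its log2 difference was −0.32 (SE 0.0900, adjusted p 0.0417). That call held in 15 of 29 alternatives, and the adjusted p rose to 0.126 without HepDKO ZT16 replicate 2. In all, 4 of 113 members had no overlap between the 6 ZT4 and 6 ZT16 libraries (Cacna2d2, Kcnc2, Kcnip3 and Kcnj5), against 3.26% of all genes. Without HepDKO ZT4 replicate 3 the comparison called 5 members, Cacna2d2, Kcnh1, Kcnip3, Kcnj5 and Kcnmb1 (4.73% of all genes called), and the same 4 had no overlap, against 4.53% of all genes.

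Between ZT10 and ZT22 no member passed that comparison (0 of 113 with edgeR, against 0.224% of all genes), and none had libraries without overlap, against 1.29% of all genes. Members with unadjusted p under 0.05 numbered 20, of which 14 were lower at ZT10 (4.78% of all genes) and 6 higher (6.06%), and DESeq2 called 1, Kcns3 (0.708% of all genes). Without HepDKO ZT4 replicate 3 edgeR also called Kcns3, and 27 members had an unadjusted p under 0.05 (23.9%, against 15.4% of all genes). Kcns3, a silent Kv subunit that modifies other Kv pores, was at 6.25, 6.60 and 6.82 CPM in Control, with HepDKO at 7.34, 7.67 and 6.13 at ZT10. At ZT22 it was at 4.73, 5.35 and 4.45 in Control, with HepDKO at 4.01, 6.19 and 3.36, so only the highest ZT22 library reached the ZT10 range. Its log2 difference was 0.54 (SE 0.146, adjusted p 0.134), and that of Kcna2 was −0.33 (adjusted p 0.222). A 12-h component was called in 0 members by edgeR and by DESeq2, against 0.0124% and 0.124% of all genes. With edgeR 11 members had an unadjusted p under 0.05 (9.73%, against 7.1%). Among the lowest p were those of Kcnc1 and the P/Q-type pore Cacna1a (adjusted p 0.497 and 0.578).

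By role, and against 21.6% of all genes, the unadjusted rhythm count was 16 of 36 among Kv pores, and 13 of these were lower at ZT4 than at ZT16. Without HepDKO ZT4 replicate 3 it was 15 Kv pores, of which 8 were lower at ZT4, against 22.4% of all genes. Among them were Kcnq3 (peak ZT18.4, adjusted p 0.15) and Kcna2 (peak ZT21.5, adjusted p 0.143). With all libraries the counts were 3 of 9 Kv accessory, 2 of 9 calcium- or sodium-activated, 3 of 13 inward rectifier and 1 of 9 2-pore potassium channel genes. For sodium channels they were 3 of 8 pores and 1 of 4 β subunits, with Scn9a at an adjusted p of 0.064. For calcium channels they were 3 of 9 α1 pores (Cacna1e, Cacna1g and Cacna1i), 1 of 4 α2δ, 0 of 4 β and 1 of 6 Cacng genes. The calcium- or sodium-activated count without HepDKO ZT4 replicate 3 was 4 of 9, the calcium channel β count 1 of 4, the inward rectifier count 4 of 13 and the sodium pore count 4 of 8. Core members such as Kcnj10 (amplitude 0.05), Kcnj3 (0.03), Kcnh2 (0.02), Cacna1d (0.02) and Cacna2d1 (0.01) had some of the flattest time courses.

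**Figure D3:**
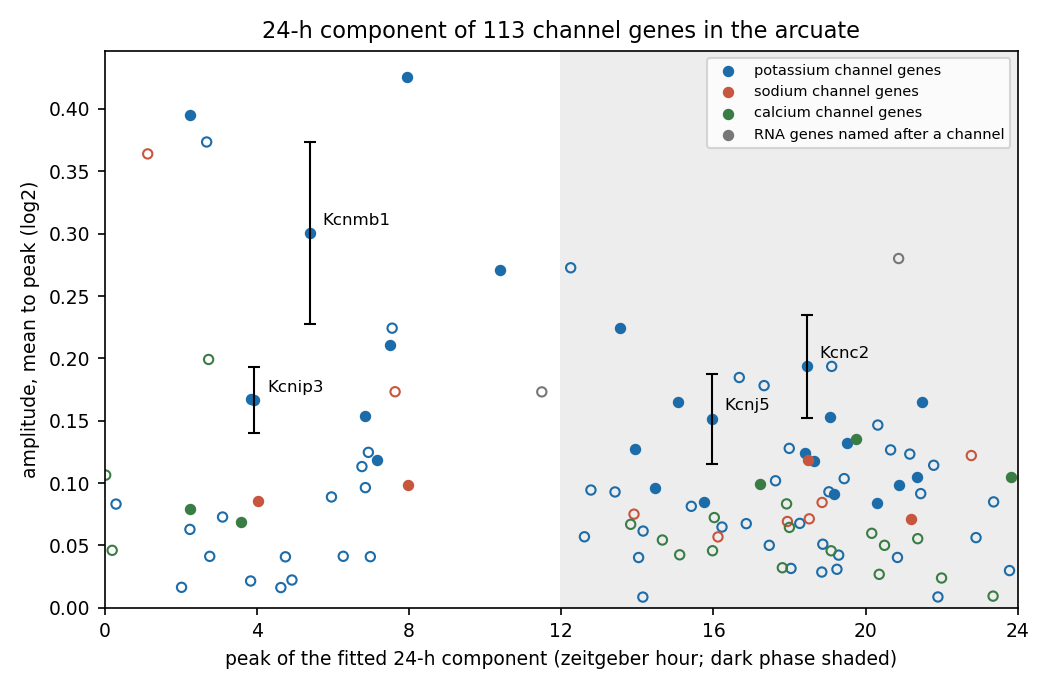
Amplitude of the 24-h component (mean to peak, log2) against the fitted peak time for the 113 channel genes in the arcuate; filled points have an unadjusted p under 0.05 and the dark phase is shaded. Of the 34 filled points, 21 peak between ZT13 and ZT1 and 13 between ZT1 and ZT13, and 102 of all 113 amplitudes are under 0.2. Most filled points did not pass the adjusted threshold, and HepDKO ZT4 replicate 3 is included.

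Leaving out arcuate HepDKO ZT4 replicate 3 changed which members passed. The averaged rhythm then called 8 members (among them Cacna2d2, Kcna6, Kcnc2, Kcnip3, Kcnmb1 and Kcns3) and 971 genes in all (5.97%), and 39 members had an unadjusted p under 0.05, of which 19 were lower at ZT4 than at ZT16. The other 20 were higher at ZT4. The same count of 8 arose without HepDKO ZT4 replicate 2 (6.32% of all genes), among them Kcnc2, Kcng2, Kcnh1, Kcnip3, Kcnj5, Kcnmb1 and Scn9a, whereas leaving out either Control ZT16 replicate 2 or Control ZT16 replicate 3 left 1 (1.88% and 2.29% of all genes). Without the library with Xist counts, arcuate HepDKO ZT10 replicate 3, 4 members passed (3.53% of all genes): Kcnc2, Kcnip3, Kcnj5 and Kcnt2. Without Control ZT22 replicate 1, 5 passed (4.36% of all genes), and between ZT10 and ZT22 16 members had an unadjusted p under 0.05 (14.2%, against 9.46%).

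Within each genotype alone, few members passed. In Control edgeR called 0 of 113 (0.261% of all genes), with 8 members (7.08%) at unadjusted p under 0.05, against 7.73% of all genes, and DESeq2 called 0 (0.627% of all genes). The lowest p in Control were those of Kcnmb1 (amplitude 0.45, adjusted p 0.128), Kcnip3 (0.14, adjusted p 0.282) and the inward rectifier Kcnj4 (0.26, adjusted p 0.367). In HepDKO edgeR called 1, Kcnip3 (amplitude 0.20, SE 0.0376, peak ZT3.40, adjusted p 0.0305), against 0.379% of all genes. In HepDKO 35 members had an unadjusted p under 0.05 (31.0%, against 17.4% of all genes), of which 26 were lower at ZT4 than at ZT16. Without HepDKO ZT4 replicate 3 this became 26 members (23%, against 14.6%), of which 15 were lower at ZT4. The Kcnip3 call in HepDKO was lost without HepDKO ZT4 replicate 1, ZT16 replicate 2 or ZT16 replicate 3, while 3 members passed without HepDKO ZT4 replicate 2 (Kcnc2 and Kcnip3 among them; 1.91% of all genes).

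The difference in rhythm between genotypes was tested directly. Neither edgeR nor DESeq2 called any of the 113 members, while edgeR called 0 of 16102 genes (0%) and DESeq2 1 (0.00621%). Only 2 members had an unadjusted p under 0.05, Kcnj4 and the 2-pore channel Kcnk10, which makes 1.77%, against 2.37% of all genes. For Kcnip3 the rhythm difference had an adjusted p of 0.999. The unadjusted count was 8 without Control ZT22 replicate 1 (7.08%, against 3.51% of all genes) and 4 without HepDKO ZT4 replicate 3 (3.54%, against 2.59%).

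The second comparison asked whether loss of the hepatic Rev-erb genes was accompanied by a change in channel transcripts of the arcuate. With the 4 times averaged, edgeR called 0 of 113 members and 0 of all genes (0%), and DESeq2 called 0 members and 23 genes (0.143%). At unadjusted p under 0.05 there were 10 members (8.85%, against 8.61% of all genes), 6 higher in HepDKO (4.97% of all genes) and 4 lower (3.64%). Without HepDKO ZT4 replicate 3 there were also 10, 7 higher and 3 lower, against 7.82% of all genes. Fitted differences, HepDKO minus Control on the log2 scale, ran from −0.276 to 0.42, and 110 of 113 lay within 0.2 of 0. The median standard error was 0.0586, and 85 members had a standard error under 0.1. In a test on simulated arcuate counts with the same fit, 99% of genes given a 1.5-fold genotype change were recovered. The changed genes were drawn only from genes above a CPM limit higher than that for members. No simulated library stood apart, and the rate does not cover members at low counts. Among the lowest p were those of Cacng8 (0.13, SE 0.0463, adjusted p 0.42) and Kcnj9 (0.11, SE 0.0427, adjusted p 0.47). Cacng8 is an AMPA receptor regulatory subunit and Kcnj9 a G protein-gated inward rectifier.

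**Figure D4:**
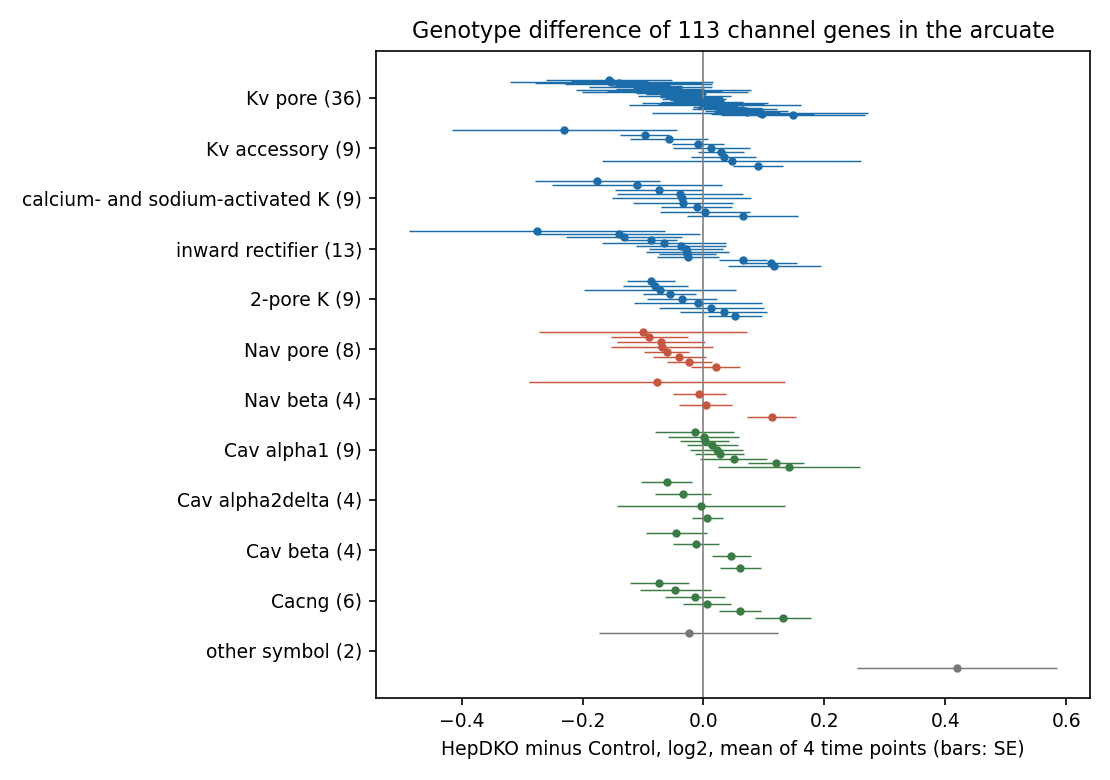
HepDKO minus Control difference (log2, mean of the 4 time points, bars are SE) of the 113 channel genes in the arcuate. Of these, 110 lie within 0.2 of 0, and none passed the adjusted threshold.

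No single time point gave a genotype call either. At each of ZT4, ZT10, ZT16 and ZT22 edgeR and DESeq2 called 0 members, and edgeR called 0 of all genes (0%). DESeq2 called 0.0311% of all genes at ZT4 and 0% at the other times. At ZT4 16 members had an unadjusted p under 0.05 (14.2%, against 11.9% of all genes), 6 higher in HepDKO (6.28% of all genes) and 10 lower (5.65%). At ZT10 there were 3 (2.34% of all genes), 1 higher (1.24%) and 2 lower (1.1%). At ZT16 there were 3 (2.73%), 2 higher (1.4%) and 1 lower (1.34%), and at ZT22 3 (3.72%), 2 higher (1.51%) and 1 lower (2.21%).

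Kcnj4, an inward rectifier of forebrain neurons, had differences of opposite sign at ZT4 and ZT10. At ZT4 it was at 6.82, 6.10 and 6.97 CPM in Control, with HepDKO at 10.8, 9.01 and 10.2, and at ZT10 at 10.7, 8.38 and 8.94 in Control, with HepDKO at 8.41, 7.02 and 5.58. The groups did not overlap at ZT4 and overlapped at ZT10. The log2 differences were 0.60 (SE 0.150, adjusted p 0.255) at ZT4 and −0.41 (SE 0.151, adjusted p 0.999) at ZT10. The rhythm difference itself had an amplitude of 0.47 (SE 0.108) and an adjusted p of 0.999, so Kcnj4 did not pass after adjustment over all genes. At the other times the low p included those of Cacng8 at ZT10, Kcnab2 and Kcnh8 at ZT16, and Cacna1g, Kcnk1 and Cacna1s at ZT22. Without HepDKO ZT4 replicate 3, 13 members had an unadjusted p under 0.05 at ZT4 (11.5%, against 4.79% of all genes) and 7 at ZT16 (6.19%, against 3.9%). Without Control ZT22 replicate 1 the count was 7 at ZT10 (6.19%, against 3.02%) and 6 at ZT22 (5.31%, against 3.55%).

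Other genes of excitability, 68 listed symbols of HCN, NALCN, chloride and TRP channels and of channel-associated proteins, had 63 members tested in the arcuate. The averaged rhythm called 2 (3.86% of all genes), both higher at ZT4. Tpcn1, an endolysosomal 2-pore cation channel, had a mean of 65.1 ± 1.58 CPM at ZT4 and 55.0 ± 1.03 at ZT16 (SD, n = 6 each; amplitude 0.12, SE 0.0220, adjusted p 0.00541). Trpm4, a calcium-activated cation channel, was at 10.5 ± 1.75 CPM at ZT4 and 7.74 ± 0.698 at ZT16 (SD, n = 6 each; amplitude 0.23, SE 0.0522, adjusted p 0.0314). At unadjusted p under 0.05 there were 15 of 63, against 21.6% of all genes.

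The third comparison asked which of these channels the nodose libraries hold. Of the 113 members, 76 had a mean of at least 1 CPM in nodose and 37 were under it, while 58 had at least 3 counts in all 24 nodose libraries and no member was at 0 in all of them. In Control, the nodose minus arcuate difference passed for 108 of 113 members in a fit over all 48 libraries (95.6%, against 88.4% of all genes tested). Of these, 92 were lower in nodose (44.8% of all genes) and 16 higher (43.5%). Members were chosen for their arcuate level, which favours lower nodose values, so these counts are a description. Over all 127 tested symbols of the name pattern, with no limit on the arcuate level, 94 were lower in nodose (74%) and 27 higher (21.3%). In bulk tissue, fewer cells of a type and less RNA per cell cannot be told apart.

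Members much lower in nodose included subunits of neuronal channels. The 2-pore acid-sensitive Kcnk9 was lower by a log2 difference of −7.95 (SE 0.291), on 81 counts over all nodose libraries. For the genes with the lowest nodose counts the fitted difference is no bound, so counts are given: over all 24 nodose libraries the Kv4-associated Kcnip1 had 29 counts, Cacng2 23, Cacng5 19, Kcns2 9, Cacng3 5, Cacng8 5, Kcnk12 3 and Kcnv1 1. In the arcuate the plain CPM means of these genes were 62.3, 52.4, 29.6, 18, 17.1, 35.5, 6.91 and 8.84 CPM. By role, over the tested symbols of the name pattern with no limit on the arcuate level, all 4 α2δ and all 4 calcium channel β subunits were lower in nodose. The count was 6 of 8 Cacng genes, with 2 higher, 9 of 10 α1 pores, with 1 higher, and 7 of 9 sodium channel pores, with 2 higher. For Kv genes it was 30 of 38 pores, with 6 higher, and 8 of 10 accessory genes, with 2 higher. Of 14 inward rectifiers 8 were lower and 5 higher, of 11 2-pore channels 7 were lower and 4 higher, of 11 calcium- or sodium-activated channels 7 were lower and 2 higher, and of 4 sodium channel β subunits 2 were lower and 1 higher. The nociceptor sodium channel Scn10a, a marker of vagal afferents, was not a member; it had 17 counts over all nodose libraries and was at 0 in 14 of them.

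The 16 members higher in nodose included genes of muscle, glia and vessels. Cacna1s, the L-type calcium pore of skeletal muscle, had a plain mean of 2.36 CPM in the arcuate and 385 in nodose, a log2 difference of 7.43 (SE 0.282). It was followed by Scn4b (3.83, SE 0.252), a sodium channel β subunit, the inward rectifier Kcnj13 (3.78, SE 0.167), the noncoding Kcnq1ot1 (3.76, SE 0.114) and Kcna1 (3.59, SE 0.120), a Kv pore found beside the nodes of myelinated axons. Kcng4 (3.40, SE 0.295), Kcnj2 (3.13, SE 0.140), Scn7a (2.92, SE 0.0992), Kcnj8 (2.41, SE 0.149) and Kcne4 (1.76, SE 0.192) completed the 10 largest. Scn7a is a sodium channel homologue of glia, Kcnj2 the main inward rectifier of muscle, and Kcnj8 a channel of pericytes and smooth muscle. The other 6 included Kcna2, Kcnh8, Kcnj12, Kcnk1 and Kcnk6. Those not called included Kcnma1 (−0.27, adjusted p 0.149), Kcnq5 (0.16, adjusted p 0.368), Kcnn1 (0.17, adjusted p 0.138) and Kcnj11 (0.19, adjusted p 0.331).

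Among the 25 pattern symbols under the arcuate limit, 10 reached 1 CPM in nodose. The highest was Scn4a, the sodium channel pore of skeletal muscle, with a plain mean of 205 CPM in nodose and 54 counts over all arcuate libraries. Kcna7 followed at 67.7 CPM, Cacng1, the γ subunit of the muscle calcium channel, at 42.6, Cacng6 at 29.2, Kcnk5 at 27.5 and Kcnrg at 14.5.

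Nodose levels of the muscle-type members moved with the muscle markers. Cacna1s ran from 44.9 CPM in Control ZT16 replicate 3 to 790 in HepDKO ZT22 replicate 3. Both libraries stood apart, with 12.5% and 21% of all genes at their lowest nodose value there and 7.23% and 19.5% at their highest, and the first held only 2889210 counts. Over the 24 libraries its Pearson r with the skeletal muscle score was 0.951 and its Spearman rho 0.908 (adjusted permutation p of 4e-05 each, 20 relations tested). Leaving out the 2 most distant scores gave an r of 0.879, Control alone 0.979 and HepDKO alone 0.774. The corresponding r was 0.947 for Scn4b, 0.913 for Kcng4 and 0.882 for Kcnj2, with rho of 0.923, 0.833 and 0.837, adjusted permutation p of 4e-05 for each r, and 0.873, 0.786 and 0.758 without the 2 farthest libraries. Kcna1 moved instead with the 5 Schwann and satellite cell markers (r 0.756, rho 0.773, adjusted permutation p 6.67e-05 for r and 4e-05 for rho, r 0.695 without the 2 farthest), and against the muscle score (r −0.601, rho −0.66, adjusted permutation p 0.00326 for r, r −0.627 without them). Scn7a had r 0.513 and rho 0.598 with the Schwann score (adjusted permutation p 0.0115 for r), which fell to 0.328 without the 2 farthest libraries. Kcnq1ot1 and Kcnj13 passed with neither score, with adjusted permutation p for r of 0.219 to 0.727. The smallest permutation p that 100000 resamples can give is 1e-05. Shares of one library's counts are bound to each other, and how far tissue composition bears on the other nodose values was not tested for each gene.

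**Figure D5:**
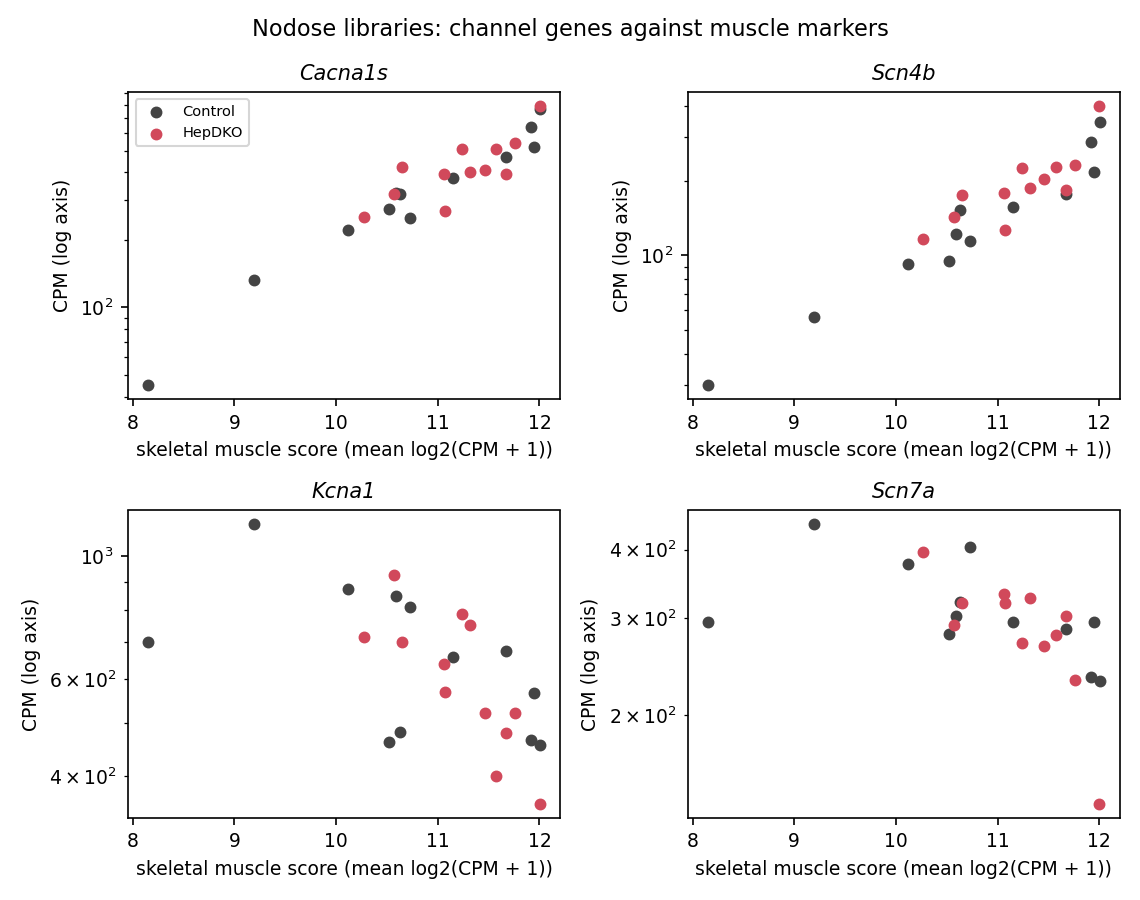
CPM (log axis) of Cacna1s, Scn4b, Kcna1 and Scn7a in each nodose library against the skeletal muscle marker score (mean log2(CPM + 1)), with Control and HepDKO libraries as separate points. Cacna1s and Scn4b rise with the score (r of 0.951 and 0.947), and Kcna1 and Scn7a fall with it (r of −0.601 and −0.561).

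Time of day and genotype were tested for the 79 members that passed the count filter in nodose. With edgeR no member passed any of the 12 nodose tests. For the averaged rhythm the count was 0 of 79 (1.33% of all genes), with 12 at unadjusted p under 0.05 (15.2%, against 12.8%) and 1 called by DESeq2 (2.58% of all genes), Kcnk2. In Control the count was 0 (0.242% of all genes), with 10 at unadjusted p under 0.05 (12.7%, against 8.88%) and 1 called by DESeq2 (0.908%), Cacna1c. In HepDKO it was 0 (0.121%), with 3 at unadjusted p under 0.05 (3.8%, against 7.28%) and 0 called by DESeq2 (0.471%). For ZT4 minus ZT16 it was 0 (0.881%), with 14 at unadjusted p under 0.05 (17.7%, against 10.5%) and 2 called by DESeq2 (1.82%), Kcna1 and Kcnk2. For ZT10 minus ZT22 it was 0 (0.424%), with 11 at unadjusted p under 0.05 (13.9%, against 10.6%) and 0 by DESeq2 (0.881%). For the 12-h component it was 0 (0%), with 10 at unadjusted p under 0.05 (12.7%, against 6.92%) and 0 by DESeq2 (0.0538%).

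For genotype in nodose, edgeR called 0 members and 0 of all genes (0%) averaged over time and at each time point. DESeq2 also called 0 members (0.0202% of all genes averaged over time and 0% at each time point). At unadjusted p under 0.05 there was 1 of 79 members averaged over time (Kcnj13, adjusted p above 0.99), against 3.34% of all genes. There was 1 at ZT4 (Cacna1h, 2.36% of all genes), 1 at ZT10 (Cacng7, 2.04%), 1 at ZT16 (Cacna1c, 4.94%) and 4 at ZT22 (5.25%), led by Kcnk4 (adjusted p 0.877). The rhythm difference between genotypes called 0 of 79 with both tools (0% of all genes), with 1 at unadjusted p under 0.05, Cacna1c (2.83% of all genes). In simulated nodose counts, 41% of genes given a rhythm with a 1.5-fold change and 81% with a 2-fold change were recovered. Those genes too were drawn above a CPM limit higher than that for members, so the rates do not cover members at low counts.

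Kcnk2, a mechanically gated 2-pore potassium channel, had the lowest p of the members for the averaged nodose rhythm in the main edgeR fit. With the skeletal muscle score as a covariate, edgeR's adjusted p for that rhythm was 0.00216 for Kcna1 and 0.0209 for Kcnk2. In Control Kcnk2 was at 29.4, 15.2 and 13.5 CPM at ZT4, 7.12, 10.4 and 12.3 at ZT10, 11.4, 12.8 and 12.6 at ZT16, and 14.5, 16.5 and 14.3 at ZT22. In HepDKO it was at 14.8, 18.6 and 14.7 at ZT4, 14.1, 14.1 and 12.0 at ZT10, 10.9, 8.50 and 9.81 at ZT16, and 17.5, 20.4 and 10.9 at ZT22. The 6 ZT4 libraries were above the 6 ZT16 libraries, the only such member of 79, against 1.86% of all genes. The highest value is that of Control ZT4 replicate 1, the library with the fewest counts (1813994), where 22 of 79 members and 13% of all genes were at their highest. Without it the log2 difference of ZT4 and ZT16 went from 0.66 (adjusted p 0.0906) to 0.46 (adjusted p 0.269). The amplitude was 0.39 (SE 0.0888), with a peak at ZT1.76 and an adjusted p of 0.0605. In the arcuate the same gene was at 80.4 ± 8.65 CPM at ZT4 and 86.7 ± 6.44 at ZT16 (SD, n = 6 each; amplitude 0.06, SE 0.0279, adjusted p 0.337). A direct test of the difference in rhythm between tissues called Kcnk2 (amplitude of the difference 0.43, SE 0.0819, adjusted p 0.0101), 1 of 113 members against 0.967% of all genes. Leaving out Control ZT4 replicate 1 gave an amplitude of 0.36 and an adjusted p of 0.0135.

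Cacna1c, an L-type calcium pore of heart, vessels and neurons, was highest in Control nodose at ZT16. There it was at 41.5, 45.2 and 43.1 CPM, against 28.0, 33.0 and 30.4 at ZT4, 29.2, 28.3 and 27.5 at ZT10, and 35.0, 32.5 and 35.2 at ZT22. The ZT16 libraries were above all other Control libraries. The Control rhythm had an amplitude of 0.28 (SE 0.0584) and an adjusted p of 0.0802. In HepDKO the ZT16 values were 35.2, 37.3 and 32.1 CPM, within the span of the other HepDKO times for 2 of the 3, and the difference in rhythm between genotypes had an adjusted p of 0.982.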

How the data were processed

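The deposited file is a table of raw counts per gene symbol in 48 libraries, made by the authors with STAR 2.7.10b after FastQC 0.11.7 and Trim Galore 0.6.10 on mm10, per the submitters' processing notes. The counting tool, its annotation and its use of strand are not given in the sources used here. No column lacked a sample. The members and lists were chosen with earlier results of these data known. Membership, mean abundance over a tissue and levels per kilobase (union of GENCODE M21 exons) use plain CPM, and spreads and values by library, time or genotype use CPM scaled by TMM factors within a tissue.

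Each tissue was fitted with edgeR 4.0.16 (limma 3.58.1, R 4.3.3): filterByExpr, TMM factors and a robust quasi-likelihood fit with 1 mean for each group of genotype and time. This left 16102 arcuate and 14867 nodose genes, and a joint fit over 48 libraries 17478. The 26 tests across all genes were each adjusted by Benjamini-Hochberg with a threshold of 0.05. The rhythm test takes ZT4 minus ZT16 and ZT10 minus ZT22 together, and times 6 h apart limit the shape that can be seen. Scores are means of log2(CPM + 1), compared by permutation tests with 100000 resamples. The fits were tested on simulated data with known changes. Alternatives were DESeq2 1.42.0, RLE factors, no filter, a replicate block, a marker score as covariate, other member limits and leaving out each library. Counts by role and of libraries without overlap were rerun without 1 library, and tissue counts without the arcuate limit, both chosen after seeing the data.

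Some genes are not reported here. The other genes named are the members past the threshold in a test, or the 3 with the lowest p where none passed, the 10 highest by CPM and per kb, the 10 most higher and lower in nodose, those beside the CPM limit, and channels known in arcuate or clock neurons. Deviations of same-numbered libraries of the 2 genotypes correlated at over 0.1 in 4 of 12 arcuate pairs (−0.19 to 0.126) and 7 of 12 nodose pairs (−0.26 to 0.44), not in all, so numbers were not taken as pairs. Replicates differed by more than sampling noise: chi-square over degrees of freedom was at least 2.89 in the arcuate and 8.12 in nodose. Counting error is set by depth, and simulated 2-fold rhythms were recovered for 100% of changed genes in the arcuate and 81% in nodose. The changed genes were drawn above a CPM limit higher than that for members, with no library standing apart. A floor of 3 counts was used to call a gene held by a nodose library.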

Additional observations from a re-analysis of the deposited data

Results flagged for a closer look

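The 24-h rhythm of Kcnk2, a mechanically gated 2-pore potassium channel, differed between the tissues. The amplitude of the difference was 0.429 on the log2 scale (SE 0.0819), with an adjusted p of 0.0101 in edgeR's fit over all 48 libraries. Kcnk2 was the 1 member of 113 called, against 0.967% of all genes. In nodose all 6 ZT4 libraries (13.5 to 29.4 CPM) were above all 6 ZT16 libraries (8.50 to 12.8 CPM), and in the arcuate the ZT4 and ZT16 means were 80.4 ± 8.65 and 86.7 ± 6.44 CPM (SD, n = 6 each). Such a lack of overlap in nodose held for 1 of 79 members and 1.86% of all genes. The value of 29.4 CPM was that of Control ZT4 replicate 1, the nodose library with the fewest counts (1813994). The nodose rhythm taken alone had an adjusted p of 0.0605. Tissue and library preparation cannot be told apart.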

How the results depend on the processing

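Counts of members called in the main analysis were 4 for the averaged arcuate rhythm, 1 for the HepDKO rhythm, 6 for ZT4 against ZT16 and 0 for ZT10 against ZT22. With DESeq2 the first became 10 (6.68% of all genes called, against 3.86%), the second 4 (2.39% against 0.379%) and the last 1 (0.708% against 0.224%). For nodose, DESeq2 gave 1 for the averaged rhythm, 1 for the Control rhythm and 2 for ZT4 against ZT16 (2.58, 0.908 and 1.82% of all genes), and the skeletal muscle score as a covariate gave 2, 1 and 3 (2.16, 0.437 and 1.76% of all genes), against 0 for each in the main analysis. The difference in rhythm between tissues called 1 member, and 6 with DESeq2 (0.967% and 2.6% of all genes). Leaving out 1 library gave 1 to 8 for the averaged arcuate rhythm (1.76 to 6.32% of all genes), 0 to 3 for the HepDKO rhythm (0.19 to 1.91%), 2 to 11 for ZT4 against ZT16 (2.29 to 8.32%) and 0 to 1 for ZT10 against ZT22 (0.147 to 1.14%). For each of these 3 nodose tests it gave 0 to 1 (0.851 to 1.82, 0.099 to 0.468 and 0.396 to 1.55% of all genes). It gave 106 to 109 for the tissue difference in level (108 in the main analysis), with 86.3 to 88.6% of all genes called. For the tissue difference in rhythm it gave 1 to 3 (0.742 to 1.58% of all genes). Genotype counts of members were 0 under every setting run. The arcuate neuron score difference between genotypes was −0.00248 (permutation p 0.93), 0.00455 on plain CPM, and −0.0139 to 0.0173 leaving out 1 library. The cause of these changes was not tested.

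With the replicate number as a block, the averaged arcuate rhythm called 6 members (Kcns3 and Scn9a were added; 4.2% of all genes) and the tissue difference in rhythm 2 (0.996%). The block moved no other count of members by over 1.5 times. The samples share only a number.

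For single genes, the 24-h component of Cacna2d1 in the arcuate reversed with the neuron score as a covariate (amplitude 0.00404), and on leaving out 1 library those of Cacna2d1 (amplitudes 0.0032 to 0.036), Kcnd1 (0.00273 to 0.045) and Cacna1d (8.61e-05 to 0.0495) reversed in at least 1 fit. Apart from these, 615 values kept their side of the threshold under the other settings, 12 passed newly and 3 were lost. On leaving out 1 library 3564 kept their side, 10 passed newly and 69 were lost. Pools of a few mice, 4 times and the spread and depth of nodose libraries limit what small changes could be seen.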

Other observations

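Hcn4, a pacemaker cation channel of heart and neurons outside the channel name pattern, had a 24-h rhythm in the nodose libraries. Its mean was 195 ± 48 CPM at ZT16, against 96.9 ± 8.94 at ZT4, 86.6 ± 10.8 at ZT10 and 112.7 ± 29.2 at ZT22 (SD, n = 6 each). The ZT16 libraries, at 120 to 255 CPM, were all above the ZT4 libraries, at 82.8 to 109.6 CPM. These times did not overlap in nodose for 1.86% of all genes tested. The amplitude was 0.53 (SE 0.0725), with a peak at ZT17.4 and an adjusted p of 0.000906 with edgeR. In the arcuate Hcn4 was at 26.0 ± 2.92 CPM at ZT4 and 27.1 ± 2.65 at ZT16 (SD, n = 6 each). The difference in rhythm between tissues had an amplitude of 0.49 and an adjusted p of 0.00266. Of the 68 listed excitability genes, Dpp6, an auxiliary subunit of A-type potassium channels, also differed between tissues in its rhythm (amplitude of the difference 0.55, adjusted p 0.0229), as did Cnga3 (adjusted p 0.0312) and Fam155a (adjusted p 0.0306). That test called 0.967% of all genes. Skeletal muscle markers summed to 3295 to 41408 CPM over the ZT16 nodose libraries and 6217 to 35078 CPM over the ZT4 libraries. With the skeletal muscle score as a covariate the Hcn4 amplitude was 0.54 and its adjusted p 0.000539. The cause of the Hcn4 rhythm was not tested.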
